A study of Mus musculus with 4 samples.

Results

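Among sorted colon monocytes and macrophages, the 454 of 4543 kept cell barcodes with the highest summed signal of Saa3, Clec4e, Tnip3 and Ly6i were examined. The series holds 4 male mice of the strain C57/Bl6N (wild type), 1 10x Genomics library each. DEP mice 11 and 13 (n = 2) received 12 µg of diesel exhaust particles (DEP) in 200 µL of phosphate-buffered saline (PBS) by oral gavage on 5 days of each week over about 6 months, and PBS mice 2 and 3 (n = 2) received the saline alone. Lamina propria cells were sorted as CD11b+ and positive for Ly6C, CD64 or both, so the gate itself fixed these surface markers, and the age of the mice was not given in the sources used here. A barcode was kept with at least 1000 UMIs (unique molecular identifiers, each standing for 1 captured transcript), at least 317 genes, at most 7% mitochondrial UMIs and under 20% immunoglobulin UMIs. Its score was the sum over the 4 genes of ln(1 + UMIs per 10000), and the top 10% over the 4 mice pooled are called high-score cells here. DEP mouse 11 gave 99, DEP mouse 13 gave 56, PBS mouse 2 gave 179 and PBS mouse 3 gave 120 of them. The 4 mice held 4489342 (DEP mouse 13) to 10293703 (PBS mouse 2) UMIs in all, and the median high-score cell had 5448 UMIs against 5944 for the other kept cells.

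The colon lamina propria is refilled by blood monocytes that express Ly6C and CCR2 and mature there into macrophages rich in MHC class II and complement C1q. Inflammatory stimuli sensed through Toll-like and C-type lectin receptors release the transcription factor NF-kB, which induces cytokines and acute-phase proteins together with its own inhibitors. Saa3 is an acute-phase serum amyloid A protein made by macrophages. Clec4e (Mincle) is a C-type lectin receptor for glycolipids that signals through the Fc receptor gamma chain encoded by Fcer1g. Tnip3 is a partner of the NF-kB inhibitor Tnfaip3, and Ly6i is a GPI-anchored protein of the Ly6 family. Il1rn encodes the interleukin 1 receptor antagonist. It was named as a marker of these cells but took no part in the score.

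The promoters of 3 score genes are shown because these genes chose the cells. The RefSeq promoter table used here was searched by symbol and matched Saa3, Clec4e and Tnip3 (3 of the 4 genes) and not Ly6i. Each line gives the 250 bases before the RefSeq transcription start in GRCm38.p6, read 5′ to 3′ on the strand of the gene. Capitals mark matches on either strand to the C/EBP-type letters TTNNGCAA or the NF-kB-type letters GGG and CC set 5 free bases apart. The windows lie at chr7:46715677-46715926 (- strand) for Saa3, chr6:123289872-123290121 (- strand) for Clec4e and chr6:65590148-65590397 (+ strand) for Tnip3, whose RefSeq start lies inside the longer gene that GENCODE gives.
Saa3: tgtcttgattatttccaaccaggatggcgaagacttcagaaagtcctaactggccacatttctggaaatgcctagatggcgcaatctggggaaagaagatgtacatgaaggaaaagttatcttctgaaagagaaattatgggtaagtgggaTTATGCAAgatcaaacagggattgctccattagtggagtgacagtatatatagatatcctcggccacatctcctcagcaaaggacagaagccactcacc
Clec4e: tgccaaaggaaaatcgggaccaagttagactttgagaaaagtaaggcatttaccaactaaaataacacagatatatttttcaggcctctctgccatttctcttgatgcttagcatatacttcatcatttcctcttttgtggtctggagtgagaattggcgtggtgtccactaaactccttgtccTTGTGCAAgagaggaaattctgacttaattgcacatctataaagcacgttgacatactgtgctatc
Tnip3: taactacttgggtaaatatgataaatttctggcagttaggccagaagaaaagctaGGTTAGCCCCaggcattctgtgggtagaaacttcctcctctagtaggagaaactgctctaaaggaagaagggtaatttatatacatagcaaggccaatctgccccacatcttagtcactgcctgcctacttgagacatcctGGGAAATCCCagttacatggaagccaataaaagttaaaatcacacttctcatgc
TTNNGCAA stood 99 to 92 bases before the start of Saa3 (TTATGCAA) and 66 to 59 bases before that of Clec4e (TTGTGCAA), and 9.56% of all 32851 promoter windows of this length held it. Tnip3 had 2 NF-kB-type stretches, of which GGGAAATCCC, 54 to 45 bases before the start, matched on both strands and GGTTAGCCCC, 195 to 186 bases before it, on the other strand alone. The NF-kB-type pattern is loose, and 45.8% of the same windows held it. The windows counted for both patterns did not cover every chromosome. No match of one pattern overlapped a match of the other in these 3 windows. These matches describe the letters and do not show binding.

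The score genes chose these cells, so their detection describes the choice and does not test the label Saa3+ Clec4e+. Clec4e had a UMI in 70.7% of the high-score cells (exact 95% binomial interval 66.3 to 74.9%, which covers counting error only), Tnip3 in 61.7% (57.0 to 66.2%), Ly6i in 35.0% (30.6 to 39.6%) and Saa3 in 26.9% (22.8 to 31.2%). Saa3 and Clec4e were found together in 74 of the 454 cells (16.3%), and at least 1 of them in 369 (81.3%). The most common combination was Clec4e with Tnip3 (118 cells), followed by Ly6i with Clec4e (59 cells), Tnip3 alone (47 cells) and Clec4e alone (43 cells), and 6 cells had all 4 genes. The score is sparse. The median high-score cell had 5 UMIs of the 4 genes, 62 cells had 2 and 4 cells had 1, and 2533 kept cells (55.8%) scored 0. The lowest score inside was 2.26022 and the highest outside 2.25909, and the 20 cells on each side of this limit had a median of 3 score-gene UMIs each, and the border fell within a continuous range. Lymphoid barcodes, defined by at least 3 UMIs of T and B cell genes, were not expected to express these genes. They had a Clec4e UMI in 17.4%, a Tnip3 UMI in 18.7%, a Saa3 UMI in 11.9% and a Ly6i UMI in 8.68% at a median of 7176 UMIs. The other kept cells were at 15.3%, 13.7%, 7.29% and 7.68%, but the cells chosen by these genes were removed from them and not from the lymphoid barcodes. Of all 4543 kept cells, 945 had a UMI of Clec4e, 840 of Tnip3, 420 of Saa3 and 473 of Ly6i. The shares of lymphoid and other kept cells are therefore not ranked here. The lymphoid barcodes were deeper, and 12 of them were high-score cells. The presence of a UMI outside the high-score cells was therefore not read as expression in a single cell. Levels did differ outside them, with Clec4e at 83.6 to 153 CPM in cells chosen by Ly6c2 and 5.19 to 22.2 CPM in cells chosen by C1q genes, groups described further on.

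The levels of the score genes, which chose the cells and are given as a description with no test, were as follows (CPM, the UMIs of a gene scaled to a common total of summed UMIs per mouse and class). Clec4e (chr6:123281789-123289870, - strand, mm10) was at 422 and 409 CPM in DEP mice 11 and 13, and 419.8 and 431 CPM in PBS mice 2 and 3. Its level was almost the same in every mouse, and the other kept cells were at 27.4 to 40.1 CPM. Tnip3 (chr6:65525313-65634040, + strand) was at 327 and 397 CPM in DEP mice 11 and 13, and 429 and 529 CPM in PBS mice 2 and 3, against 25.7 to 37.7 CPM in the other cells. Saa3 (chr7:46711998-46715700, - strand) was at 369.9 and 897 CPM in DEP mice 11 and 13, and 829 and 369 CPM in PBS mice 2 and 3. DEP mouse 13 and PBS mouse 2 were high, 1 mouse of each group, so the groups overlapped, and the other cells were at 5.17 to 25.6 CPM with PBS mouse 2 highest. Ly6i (chr15:74979534-74983430, - strand) was at 301 and 93.8 CPM in DEP mice 11 and 13, and 81.5 and 177 CPM in PBS mice 2 and 3. DEP mouse 11 and PBS mouse 3 were high, again 1 of each group, and the other cells were at 7.97 to 22.5 CPM.

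**Figure D1:**
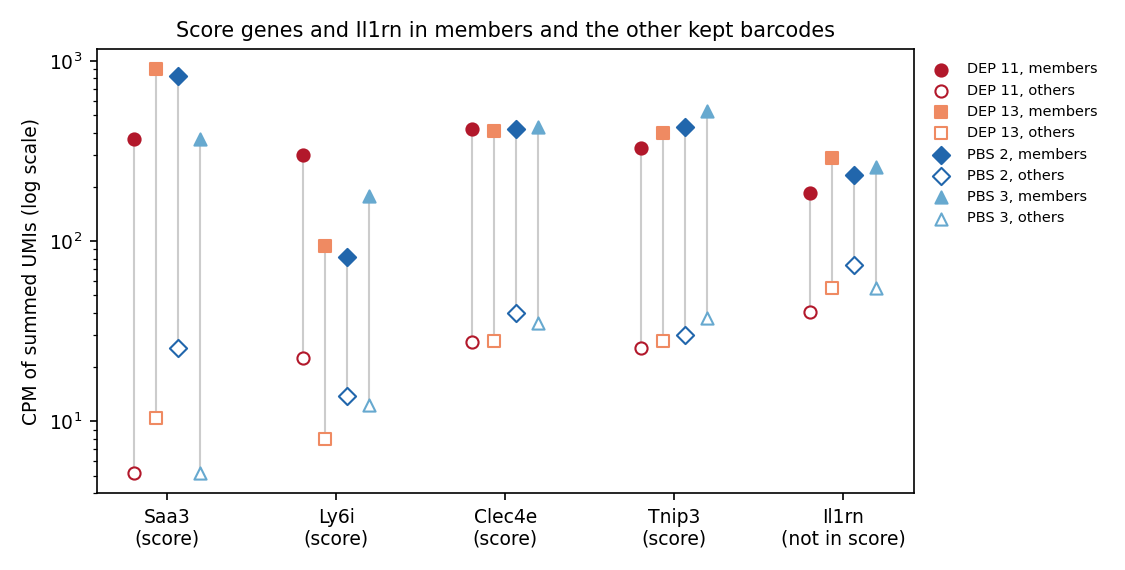
CPM of the summed UMIs (log scale) of the 4 score genes and of Il1rn in each mouse, with filled symbols for the high-score cells (members) and open symbols for the other kept cells (others). Clec4e in members lies between 409 and 431 CPM in all 4 mice, whereas Saa3 and Ly6i differ between mice of 1 group, and Il1rn, which was not in the score, is higher in members in 4 of 4 mice.

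Saa3 stood apart from the other score genes in its distribution. A few cells carried most of it: the 10 highest high-score cells held 63.8% of the 1701 Saa3 UMIs, 1 cell of PBS mouse 2 held 226, and 28 cells had 10 or more. For Clec4e the 10 highest cells held 11.3% of 1117 UMIs. PBS mouse 2 also differed in how widely Saa3 was found. A Saa3 UMI was in 45.8% of its high-score cells (38.4 to 53.4%), 18% of its other kept cells and 27.9% of its 68 lymphoid barcodes, against 2.90%, 6.22% and 2.96% of the other kept cells of DEP mouse 11, DEP mouse 13 and PBS mouse 3. With every barcode thinned to 1000 UMIs the shares of the other kept cells were 2.46% in PBS mouse 2 and 0.433 to 0.691% elsewhere. Whether free RNA set this background was not tested. A score without Saa3 kept 388 of the 454 cells (85.5%), and results are given with it and without PBS mouse 2 where they moved.

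Il1rn, which took no part in the score, was higher in the high-score cells of every mouse. It was at 185 and 291 CPM in DEP mice 11 and 13, and 234 and 257 CPM in PBS mice 2 and 3 in the high-score cells, and at 40.2 and 55.0 CPM in DEP mice 11 and 13, and 73.7 and 54.6 CPM in PBS mice 2 and 3 in the other cells. The difference was 1.94 ± 0.28 on the log2(CPM + 10) scale (mean ± SD over 4 mice), and all 4 values in high-score cells exceeded all 4 in other cells. The gene had a UMI in 39.4% of high-score and 20.4% of other cells, while lymphoid barcodes were at 20.1%, and thinned to 1000 UMIs these shares were 15.6%, 5.04% and 3.2%. As the cells were cut from the same profiles, differences between high-score and other cells are described here with no test, all on this log2 scale.

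Of 4668 genes found in at least 10% of either class, score genes left out, 1027 (22.0%) were higher in the high-score cells in 4 of 4 mice and 814 (17.4%) were lower, with a median difference of 0.01 over all of them. The 20 genes that differed most upwards were led by F10, coagulation factor X, at 64.7 to 113 against 8.83 to 13.8 CPM (1.98 ± 0.29). Secreted proteins among them were the products of Cxcl9, a chemokine for T cells (1.79 ± 0.22), Slpi, a leukocyte protease inhibitor (1.54 ± 0.59), Hp, haptoglobin (1.37 ± 0.44), and the chemokine gene Ccl5 (1.35 ± 0.80). Surface proteins were Tnfsf9, the ligand of the T cell costimulator 4-1BB (1.68 ± 0.50), the death receptor Fas (1.24 ± 0.27), the lipopeptide receptor Tlr2 (1.18 ± 0.43) and Gpr84, a receptor for medium-chain fatty acids (1.42 ± 0.29). Intracellular ones were Nfkbia, the inhibitor IkB-alpha (1504 to 1927 against 481 to 735 CPM, 1.51 ± 0.12), Sod2, mitochondrial superoxide dismutase (1.5 ± 0.12), Traf1, an adaptor of TNF receptors (1.41 ± 0.07), and Ptgs2, cyclooxygenase-2 (1.18 ± 0.30). They were joined by the lipid-binding protein Fabp5 (1.61 ± 0.44), Id3, an inhibitor of helix-loop-helix factors (1.56 ± 0.71), Marcksl1 (1.54 ± 0.20), Csrnp1 (1.28 ± 0.21), Arl5c (1.25 ± 0.13) and Plac8, a monocyte gene (2014 to 3005 against 930.4 to 1169.7 CPM, 1.16 ± 0.13). Ccl5, Id3 and Slpi varied most between mice. The 10 genes that differed most downwards were H2-M2, a non-classical MHC class I gene (34 to 55.5 against 126 to 332 CPM, -2.04 ± 0.39, and -2.77 with the score without Saa3), Pmepa1, a feedback inhibitor of TGF-beta signalling (-1.66 ± 0.42), and Tlr12 (-1.56 ± 0.52), followed by the guanylate-binding protein gene Gbp2b (-1.53 ± 0.87), Hpgds, a prostaglandin D synthase (-1.49 ± 0.29), Zmynd15 (-1.49 ± 0.46), Olfml3 (-1.45 ± 0.15), the chemokine gene Ccl8 (-1.43 ± 0.55), Asb2 (-1.41 ± 0.86) and Cadm1, an adhesion molecule (-1.39 ± 0.49).

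**Figure D2:**
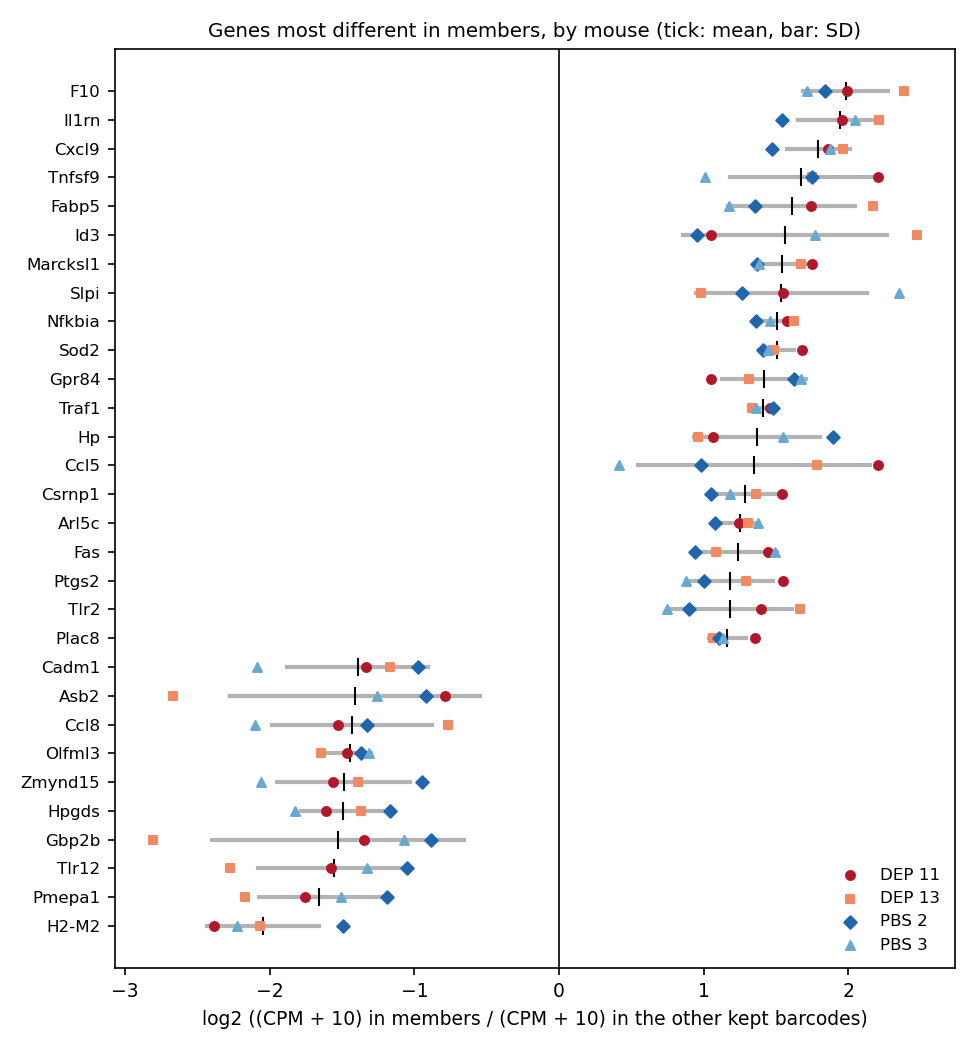
Difference between high-score and other kept cells, log2 of (CPM + 10) ratios on the horizontal axis, for the 20 genes highest and the 10 lowest in the high-score cells, with 1 symbol per mouse, a tick at the mean and a bar of 1 SD. All 4 mice lie on the same side of 0 for each gene, as the rule that named them required, and Nfkbia, Sod2 and Traf1 spread least among the upper genes while Ccl5 and Id3 spread most.

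Genes of NF-kB and its feedback were higher in the high-score cells almost throughout. Of 27 genes of this list, 25 were higher in the high-score cells in 4 of 4 mice and none was lower in all. Their median was 0.64. Over all genes 22.0% were higher and the median was 0.01. The list was chosen with earlier results of these data known, and the score gene Tnip3 is a partner of an NF-kB inhibitor. These counts are therefore a description and no test. Beside Nfkbia, Marcksl1, Sod2 and Traf1, the list held Icam1, an adhesion receptor (152 to 209 against 72.6 to 101 CPM, 1.05 ± 0.22), Tnfaip3, the ubiquitin-editing inhibitor that Tnip3 is a partner of (0.81 ± 0.23), and Nfkbiz (0.65 ± 0.21). It also held Socs3, an inhibitor of cytokine signalling (0.64 ± 0.10), Ier3 (0.59 ± 0.21) and the subunits Rel (0.60 ± 0.18) and Nfkb1 (0.58 ± 0.13). The 2 exceptions were Rela, higher in 3 mice (0.27), and Tnip2, higher in 2 (0.10). The summed list was at 5384 to 7064 CPM in the high-score cells and 2608 to 3777 CPM in the other cells. The count was 25 without PBS mouse 2, 24 with the score without Saa3 and 21 with cells scored after thinning. In the RefSeq windows, 17 of the 23 list genes with an entry (73.9%) had the NF-kB-type letters before at least 1 start. The share was 48.7% of the 27025 genes searched and 54.4% of the 18581 that were in the count table. The list was made up of NF-kB genes, and the motifs were chosen with earlier results known. The share therefore describes the list and not the high-score cells.

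Receptors upstream of NF-kB did not move as a block. Of the Toll-like receptor list 4 of 9 genes were higher in 4 of 4 mice (median 0.02), namely Tlr2, its co-receptor Cd14 (922 to 1211 against 416 to 641 CPM, 1.01 ± 0.09), the adaptor Myd88 (0.65 ± 0.31) and the kinase gene Irak2 (0.36 ± 0.27), while Ly96 was at -0.03 ± 0.36. Of the C-type lectin receptors beside Clec4e, 5 of 12 were higher and 2 of 12 lower (median 0.04). Clec4d, encoded beside Clec4e and its partner receptor, was at 0.58 ± 0.57 with 3 mice higher. Clec4a3 was at 0.17 ± 0.05 and Clec4a1 at 0.11 ± 0.08, whereas Clec4n (Dectin-2) was lower in 4 of 4 mice (-0.40 ± 0.07), as was Clec4a2 (-0.11 ± 0.11). Downstream of these receptors 3 of 13 genes were higher and 2 lower (median 0.03). The signalling chains Fcer1g (0.03 ± 0.12) and Tyrobp (0.03 ± 0.05) hardly differed, and the kinase Syk (0.32 ± 0.42) was higher in 3 mice.

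Interleukin 1 genes were higher in the high-score cells on both the agonist and the antagonist side. Of the list of interleukin 1 and inflammasome genes 7 of 11 were higher in 4 of 4 mice and none lower (median 0.39). Il1b, the secreted agonist, was at 7026 and 5714 CPM in DEP mice 11 and 13, and 6429.9 and 3953 CPM in PBS mice 2 and 3 in the high-score cells and at 2173 to 3284 CPM in the other cells (1.05 ± 0.15). Every high-score value exceeded every other value. The inflammasome sensor Nlrp3 was at 49.4 to 79.5 against 18.6 to 34.4 CPM (0.96 ± 0.14), the protease Casp1 at 0.39 ± 0.21 and the pore protein Gsdmd at 0.27 ± 0.24, while the adaptor Pycard was not higher (-0.07 ± 0.17). Of the other cytokines 4 of 5 were higher (median 0.47), with Osm, oncostatin M, at 0.95 ± 0.34, Tnf at 0.47 ± 0.43 and Tgfb1 at 0.20 ± 0.08. Chemokines were divided. Of this list 10 of 16 were higher, including the neutrophil attractant Cxcl2 (0.52 ± 0.19), the monocyte attractant Ccl2 (0.95 ± 0.43), Ccl9 (0.93 ± 0.23), Ccl6 (0.73 ± 0.13) and Ccl3 (0.23 ± 0.28). Ccl4 was higher in 3 mice (0.25 ± 0.38), and 4 were lower, Ccl8, Pf4, Ccl12 and Cxcl16. All 7 acute-phase and antimicrobial genes found in enough cells were higher (median 0.70). They were F10, Slpi, Hp, the chitinase-like protein Chil3 (0.70 ± 0.16), Wfdc17 (0.41 ± 0.18) and the lysozymes Lyz1 (0.25 ± 0.10) and Lyz2 (0.19 ± 0.10), near-identical neighbours between which reads may be split. List genes named here beyond the most abundant ones of each list were chosen after their values were seen.

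Monocyte genes were higher and macrophage genes lower than in the other kept cells, as differences of level. All 11 of 11 detected genes of the Ly6c2+ monocyte list were higher in 4 of 4 mice (median 0.83), among them Ms4a4c (0.99 ± 0.21), the chemokine receptor Ccr2 (0.52 ± 0.21), Fn1, fibronectin (0.95 ± 0.28) and Ly6c2 itself, at 242 to 390.2 against 108 to 199.6 CPM (0.93 ± 0.43). Of the mature macrophage list 11 of 12 were lower (median -1.03), with the tetraspanins Cd81 (-1.23 ± 0.08) and Cd63 (-1.32 ± 0.16), Apoe (-0.97 ± 0.16) and the complement genes C1qa (-1.0 ± 0.10) and C1qb (-0.90 ± 0.14). C1qa was at 1949 to 2708 CPM in the high-score cells and 4027 to 4974 CPM in the others. Its share of cells with a UMI was 97.6% in the high-score cells, 97.7% in the others and 94.5% in the lymphoid barcodes, so single cells could not be told from background by its presence. Of the MHC class II list 7 of 11 were lower (median -0.31), with Cd74 at -0.40 ± 0.06, H2-Aa at -0.36 ± 0.06 and H2-Ab1 at -0.38 ± 0.05. Lineage genes shared by monocytes and macrophages had a median of 0.03, with Fcgr1, the gene of the sorted CD64, at 0.04 ± 0.26 and Itgam, that of CD11b, at 0.09 ± 0.15. These differences of level do not by themselves show a monocyte origin, as the label has it, and the cells are named here by their score. Summed over the list, monocyte genes were at 4769.8 to 6148 CPM in the high-score cells and 2521 to 2959 CPM in the other cells, and macrophage genes at 21673 to 30962 CPM in the high-score cells and 43996 to 53877 CPM in the other cells.

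Among regulators, 14 of 25 transcription factor genes were higher in 4 of 4 mice and 5 of 25 lower (median 0.29). Nr4a1 (1.08 ± 0.35), Hif1a, the hypoxia-inducible factor (0.96 ± 0.26), Cebpb (0.81 ± 0.43), Atf3 (0.28 ± 0.18), Zeb2 (0.49 ± 0.10) and Spi1, PU.1 (0.31 ± 0.09) were higher, and the macrophage factor Maf (-0.47 ± 0.19) was lower. Feedback genes of interleukin 10 and STAT3 were higher for 11 of 15 and lower for 1 (median 0.53), among them the phosphatase gene Dusp1 (0.53 ± 0.06) and Zfp36, which promotes decay of cytokine transcripts (0.65 ± 0.09). Type I interferon genes were higher for 11 of 16 and lower for 1 (median 0.41), with Isg15 at 1.12 ± 0.32 and Ifi204 at 0.49 ± 0.20. The gene lists overlapped. Ms4a4c stood in this list and the monocyte list, and Hp and Chil3 in the monocyte and acute-phase lists. Socs3 stood in the NF-kB and interleukin 10 lists, and Il1rn in the interleukin 1 and interleukin 10 lists. Counts of different lists are therefore not separate results. Interferon gamma genes were higher for 6 of 16 and lower for 3 (median 0.19), with Cxcl10 at 0.95 ± 0.63, Psmb8 at 0.22 ± 0.19 and the lower Irf8 at -0.44 ± 0.16. Glycolysis genes were higher for 10 of 16 (median 0.28), with Eno1 at 0.54 ± 0.10 and Ldha at 0.25 ± 0.11. Effector enzymes were higher for 6 of 14 and lower for 2 (median 0.20), with Alox5ap at 0.74 ± 0.14 and Cybb, a subunit of the phagocyte oxidase, at 0.31 ± 0.11. S100 genes were higher for 4 of 6 (median 0.51) and other Ly6 family genes for 3 of 4 (median 0.64), with Ly6e at 0.41 ± 0.11. Genes of the aryl hydrocarbon receptor and of Nrf2, which sense pollutants and oxidants, were divided, 4 of 11 higher and 3 of 11 lower (median 0.08), with Prdx1 lower (-0.30 ± 0.08) and the cystine transporter gene Slc7a11 higher (0.93 ± 0.65). Cyp1a1, Cyp1b1 and Nqo1 had no UMI in the high-score cells. Proliferation genes were higher for 0 of 5 and lower for 1 (median -0.25). Immediate early and heat shock genes, which also report handling of tissue, were higher for 9 of 21 and lower for 5 of 21 (median 0.02), with Fos at 0.11 ± 0.03 and Junb at 0.44 ± 0.08.

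Markers of other cell types were low in the high-score cells. Of 14 neutrophil genes 8 had no UMI in the high-score cells, S100a9, Cxcr2 and Retnlg among them, while Csf3r (0.50 ± 0.08) and Cd177 (0.63 ± 0.32) were higher in 4 of 4 mice, and the summed list was at 89.8 to 111 CPM against 50.7 to 65.0 CPM in the other cells. Dendritic cell genes summed to 156 to 318 CPM against 115 to 154 CPM in the other cells, led by Clec10a (0.43 ± 0.48). T cell genes summed to 34.1 to 46.9 CPM against 24.2 to 47.5 CPM in the other cells, B cell genes to 28.9 to 65.6 CPM against 67.6 to 94.7 CPM in the other cells and epithelial genes to 27.4 to 61.3 CPM against 26.6 to 192 CPM in the other cells. Stromal and endothelial genes summed to 31.4 to 43.8 CPM against 41.4 to 71.5 CPM in the other cells, eosinophil genes to 10.8 to 37.5 CPM against 8.25 to 20.8 CPM in the other cells and mast cell genes to 0 to 1.85 CPM against 1.32 to 3.78 CPM in the other cells. Plasma cell genes summed to more, nearly all of it immunoglobulin, at 3319.7 to 8406 CPM against 3604 to 9251 CPM in the other cells. Doublets were called for 5 of the 454 cells and 68 of the 4543, and 12 of the 454 were lymphoid barcodes. The part of neutrophil and dendritic cell transcripts in the differences above was not tested.

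Levels of some described genes differed over the score on both sides of its border. From cells of score 0 (2533) through cells of low score (1102) and the tenth just below the border (454) to the high-score cells split at their middle score (227 and 227), Il1rn was at 44.5, 62.7, 112, 178 and 292 CPM. Its level was higher at each step in each of the 4 mice. Nfkbia was at 535, 649.7, 1138, 1629 and 1969.7 CPM, Sod2 at 101, 118, 185, 226 and 469 CPM and Plac8 at 867, 964, 1843, 2159.5 and 2307 CPM over the same steps. C1qa was at 4756, 4705, 2730.3, 2473 and 2273 CPM and Cd63 at 921, 944, 539, 370.4 and 336 CPM. Pooled over the 4 mice, values of the tenth below the border lay between those of cells at score 0 and those of the high-score cells for each of these 6 genes. The steps differed between mice. At the border DEP mouse 13 went from 572 to 1679 CPM for Nfkbia and from 2169 to 7097 CPM for Il1b, with little difference between its classes below. Its Plac8 was lower above the border (2330 to 1787 CPM) and its C1qa higher (2085 to 2626 CPM). DEP mouse 11 had higher C1qa (2438 to 2575 CPM) and Cd63 (360.4 to 393 CPM) and lower Sod2 (209.5 to 192.7 CPM) above the border. The last step, from the lower to the upper part of the high-score cells, was not shared by all mice for most of them. Nfkbia was lower in the upper part in DEP mouse 11 (1941 to 1913 CPM), DEP mouse 13 (1679 to 1331 CPM) and PBS mouse 3 (1681 to 1585 CPM). It was higher only in PBS mouse 2 (1414 to 2268 CPM), which gave 101 of the 227 cells there, so the pooled last step of Nfkbia rested on that mouse. In PBS mouse 2 Plac8 was lower in the upper part (2244.5 to 1839 CPM) and C1qa higher (2581 to 2804 CPM), and Cd63 was higher there in DEP mouse 13 (328 to 458 CPM) and PBS mouse 2 (340.0 to 365 CPM). Over the same steps Ly6c2 was at 147, 174, 304, 315 and 312 CPM and Ccr2 at 441, 415, 609, 656 and 607 CPM. Between both parts of the high-score cells, Slpi was lower in DEP mouse 11 (148 to 33.2 CPM) and DEP mouse 13 (170.5 to 31.0 CPM) and higher in PBS mouse 3 (215 to 549 CPM). Il1b was lower in the upper part in DEP mouse 13 (7097 to 4358 CPM) and PBS mouse 3 (4431.5 to 3175 CPM).

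**Figure D3:**
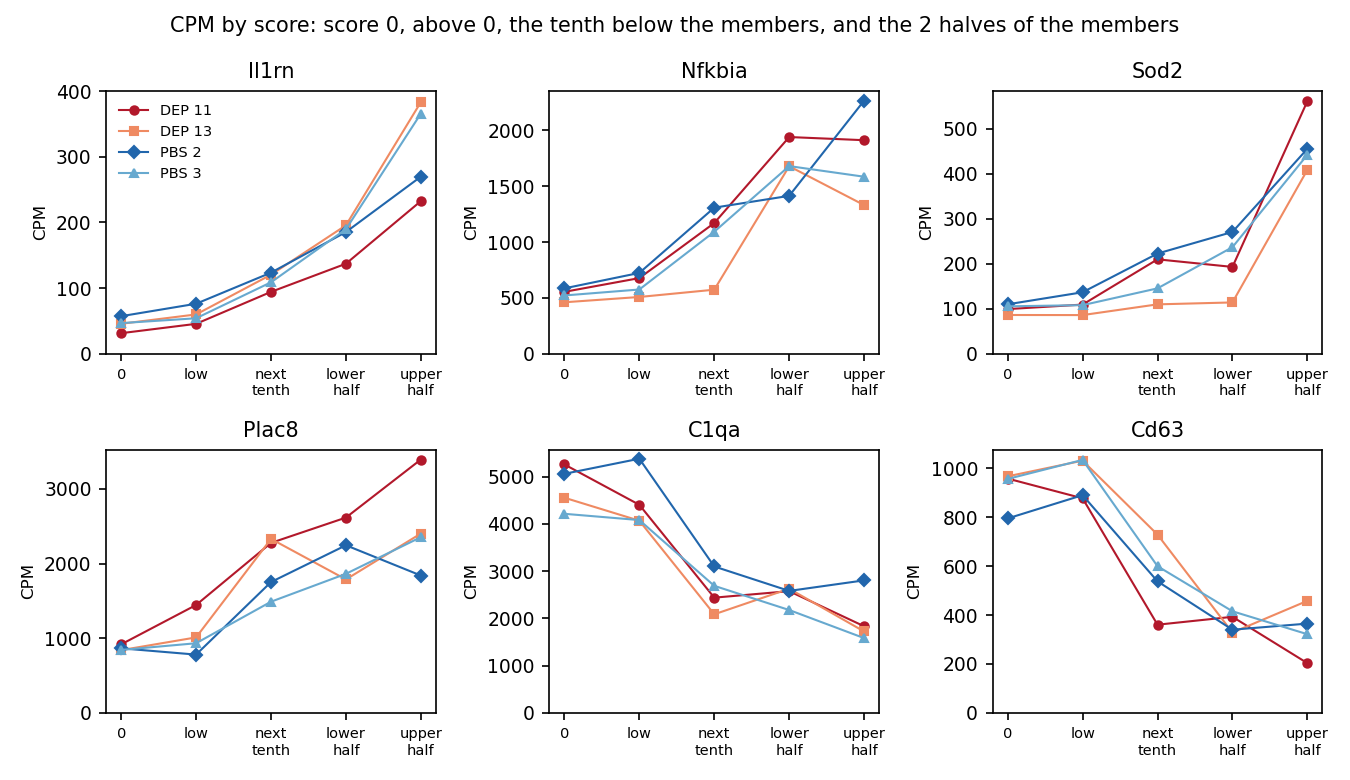
CPM of 6 genes that were not in the score (vertical axes, linear) in 5 classes of kept cells ordered by score (horizontal axes): score 0, low, the tenth below the border, and the high-score cells split at their middle score, with 1 line per mouse. Il1rn is higher in each class than in the one before in every mouse, and C1qa and Cd63 are lower in both parts of the high-score cells than at score 0 in every mouse.

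High-score cells with and without each score gene differed in other genes too. The genes named were picked, after their values were seen, from the 10 highest and 5 lowest mean differences between high-score cells with and without the score gene, so they allow no test, and whether the sets differ between score genes was not tested. A cut on a sum makes its genes trade off inside the cut, and Spearman's rho between pairs of score genes over the thinned high-score cells was -0.17 to -0.004, so the same contrast over all kept cells is given second. Cells with Ly6i were higher in Cxcl9, at 2.68 ± 1.06 (over all kept cells 1.40), in the guanylate-binding protein gene Gbp2 at 1.71 ± 0.31 (0.77) and in Ly6a at 1.71 ± 0.81 (1.1). They were lower in Ccl7 (-2.05 ± 1.17, -1.19). Cells with Clec4e were higher in Slpi, at 2.19 ± 0.39 (1.72), and in Cd177 of the neutrophil list, at 1.92 ± 0.75 (1.16). The same cells had Hp at 1.40 ± 0.48 (1.61), Fn1 at 1.43 ± 0.74 (1.25) and F13a1 at 1.24 ± 0.16 (1.01). Gm4763 (1.84, 1.13), Mtus1 (1.61, -0.10) and Tmx4 (1.48, 0.03) were also among their highest, the last 2 near 0 over all kept cells. Cells with Tnip3 were higher in the neutrophil attractant Cxcl1 (2.6 ± 1.18, 1.32) and in the lectin gene Cd209a (1.86 ± 0.73, 1.49). Mgl2 (1.81, 0.25) and H2-M2 (1.52, -0.22) followed in the high-score cells but not over all kept cells. They were lower in Chil3 (-2.19 ± 1.02, -0.82) and Pglyrp1 (-2.40 ± 0.97, -0.63). Cells with Saa3 were higher in Fabp5 (1.17 ± 1.06, 0.96), the ectoenzyme Cd38 (1.40 ± 0.70, 0.48) and the oxysterol receptor gene Nr1h3 (1.33 ± 0.45, 0.65). They were lower in Nlrp3 (-1.41 ± 0.99, -0.48). Of the 122 cells with Saa3, 82 came from PBS mouse 2. H2-M2 and Lag3, high beside Saa3 in the high-score cells (2.30 ± 1.11 and 1.21 ± 0.79), were at 0.27 and 0.04 over all kept cells. Over the 454 thinned cells the gene of highest Spearman's rho was Wfdc17 for Saa3 (0.22), Plac8 for Ly6i (0.21), Plac8 for Clec4e (0.17) and Cd74 for Tnip3 (0.18), all weak in such sparse counts.

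High-score cells were set beside 3 groups of the same size chosen by the same form of score. They shared 79 cells (17.4% of each) with a Ly6c2 group (Ly6c2, Plac8, Vcan and F13a1) and 60 (13.2%) with a Cd209a group (Cd209a, Clec10a, Flt3 and Dpp4). They shared 9 (1.98%) with a C1q group (C1qa, C1qb, Mrc1 and Cd63). By mouse, the Cd209a group held 20.2% and 19.6% of the high-score cells of DEP mice 11 and 13 and 10.6% and 8.33% of those of PBS mice 2 and 3. For the Ly6c2 group these shares were 24.2% and 21.4% under DEP, against 17.3% and 10% under PBS, in the same order. Both shares were higher in both DEP mice than in either PBS mouse, and 2 against 2 mice cannot give an exact permutation p under 0.333. Of the cells outside the high-score cells 9.17%, 9.64% and 10.9% fell into the Ly6c2, Cd209a and C1q groups. By mouse, the Ly6c2 group held 9.27% and 7.25% of them in DEP mice 11 and 13, and 11.2% and 8.38% in PBS mice 2 and 3. The Cd209a group held 9.93% and 8.46%, and 9.27% and 10.2%, in the same order. In both the DEP and PBS mice overlapped. With shared cells left on the high-score side, Il1rn was higher in the high-score cells than in all 3 groups, by 2.92, 1.97 and 1.96 on the log2 scale in that order. The same held for Nfkbia (1.60, 1.75 and 1.80), Il1b (1.93, 1.16 and 1.26) and Sod2 (1.5, 1.81 and 1.62). The 10 genes lowest against the other kept cells were all higher on average than in the Ly6c2 group, among them H2-M2 (0.61), Pmepa1 (0.77), Hpgds (0.94) and Olfml3 (0.64), each in 4 of 4 mice. F10 was close to its level in the Ly6c2 group, at 40.7 to 71.9 CPM there (0.40 ± 0.25), and well above the other 2 groups (2.33 and 2.87). Slpi was higher than in the Ly6c2 group in 1 of 4 mice (-0.38 ± 0.63) and higher than in the other 2 in every mouse (1.98 and 2.30). Hp was lower than in the Ly6c2 group (-0.92) and higher than in the other 2 groups (1.97 and 3.07), and C1qa was higher than in the Ly6c2 group (1.44) and lower than in the C1q group (-1.69). Ccr2 was lower than in the Ly6c2 group in 4 of 4 mice (-0.24). It was near its level in the Cd209a group (-0.06) and above that in the C1q group (1.91). Ly6c2 and Plac8, which chose the Ly6c2 group, were lower than there (-1.97 and -1.14) and higher than in the Cd209a group (0.80 and 0.64). H2-Aa was higher than in the Ly6c2 group (1.32) and lower than in the other 2 (-0.28 and -0.62). Each group was chosen on these profiles, so the differences carry no test.

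The first question of the design was whether DEP altered the share of high-score cells. They were 8.48% of the kept cells of DEP mouse 11 (99 of 1167, exact 95% binomial interval 6.95 to 10.2%) and 8.82% of those of DEP mouse 13 (56 of 635, 6.73 to 11.3%). PBS mouse 2 had 14.5% (179 of 1236, 12.6 to 16.6%) and PBS mouse 3 had 7.97% (120 of 1505, 6.65 to 9.46%). PBS mouse 2 was high and the other 3 mice lay close together, with both DEP mice between the 2 PBS mice. The means were 8.65 ± 0.237% for DEP and 11.2 ± 4.60% for PBS (SD, n = 2 each), a difference of -2.58 percentage points that was smaller than the spread between the PBS mice (exact two-sided permutation test, p = 1, where 2 against 2 mice cannot give less than 0.333). Without PBS mouse 2 the difference was 0.678 points, so its direction rested on that mouse. The share in these sorted suspensions cannot tell more cells of a kind from more RNA of the score genes per cell.

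**Figure D4:**
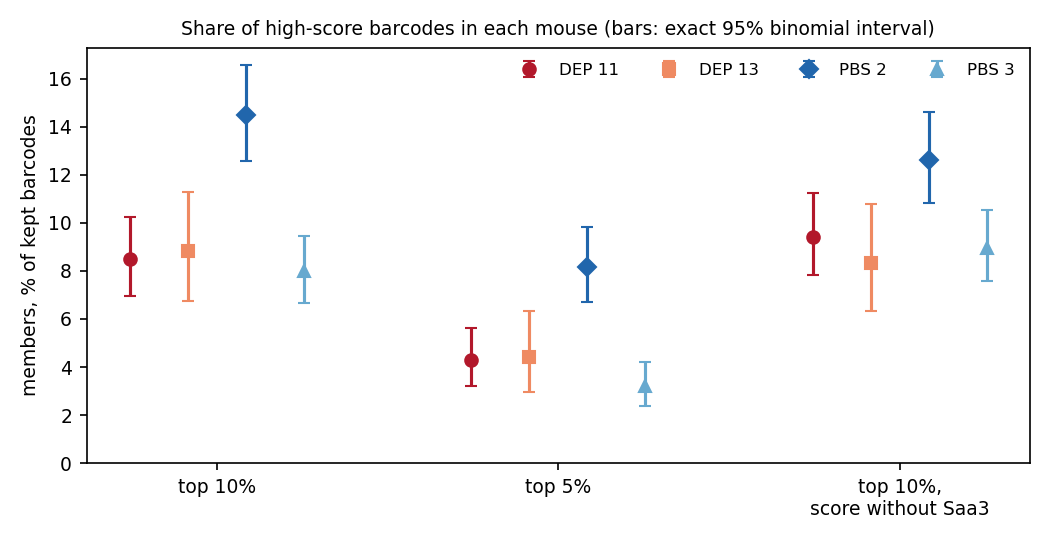
Share of kept cells that were high-score cells (vertical axis, percent, from 0) in each mouse for the top 10%, the top 5% and a score without Saa3, with exact 95% binomial intervals that cover counting error only. PBS mouse 2 is highest in each of the 3 settings and the other 3 mice have overlapping intervals, so the 2 groups overlap.

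The second comparison tested expression between DEP and PBS mice inside the high-score cells, on UMIs summed per mouse. The 4 score genes were in these fits and their adjustment and were left out of the calls. Of 6147 genes tested 2 passed a false discovery rate of 5% (0.0325%, edgeR's quasi-likelihood test with Benjamini-Hochberg adjustment), both lower with DEP, while 201 had an unadjusted p under 0.05 (94 higher and 107 lower). No gene was called higher (0.00%). Both encode chaperones of the heat shock response. Hspa1a, an inducible Hsp70 (chr17:34969190-34972156, - strand), was at 882 and 1035 CPM in DEP mice 11 and 13, and 2611 and 2353 CPM in PBS mice 2 and 3. The DEP mice were both below the PBS mice, and the log2 difference was -1.38 ± 0.20 (SE) at an adjusted p of 0.0121 by edgeR. Dnajb1, an Hsp40 co-chaperone (chr8:83608193-83612653, + strand), was at 59.2 and 93.8 CPM in DEP mice 11 and 13, and 246 and 506 CPM in PBS mice 2 and 3, again with no overlap, and differed by -2.34 ± 0.36 (SE) at an adjusted p of 0.0184 by edgeR. In the other kept cells the same order held without passing, with Hspa1a at 1255 and 1306 CPM in DEP mice 11 and 13, and 2531 and 2002 CPM in PBS mice 2 and 3 (-0.82 ± 0.16 (SE), adjusted p = 0.616 by edgeR). Dnajb1 was there at 163 and 243 CPM in DEP mice 11 and 13, and 357 and 744 CPM in PBS mice 2 and 3 (-1.45 ± 0.33 (SE), adjusted p = 0.793 by edgeR). Over the list of immediate early and heat shock genes 2 of 21 passed, both lower, 19 of 21 were negative and the median was -0.46. In the other kept cells the same genes had a median of -0.48, while over all tested genes the medians were -0.00153 in the high-score and -0.0154 in the other cells. These genes respond to tissue handling too, and the part of handling in the difference was not tested. The neighbouring and near-identical Hspa1b, with which reads may be split, was at 85.1 and 206 CPM in DEP mice 11 and 13, and 212 and 281 CPM in PBS mice 2 and 3 and did not pass (-0.81 ± 0.34 (SE), adjusted p = 1.0 by edgeR). Hspa1a passed in 17 and Dnajb1 in 17 of 20 alternatives. Hspa1a did not pass without DEP mouse 11 (-1.24), Dnajb1 did not with the top 5%, and neither did with the top 20% or with cells scored after thinning.

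No gene of the lists that stood out in the high-score cells passed between DEP and PBS. Il1rn was at -0.07 ± 0.26 (SE), Il1b at 0.29 ± 0.20 (SE), Nlrp3 at 0.41 ± 0.30 (SE), Nfkbia at -0.05 ± 0.19 (SE) and Sod2 at -0.11 ± 0.23 (SE) on the log2 scale, each with an adjusted p of 1.0 by edgeR. Of the NF-kB list 0 of 27 passed in either direction (median 0.14, 1 gene under an unadjusted p of 0.05), of the interleukin 1 list 0 of 12 (median -0.05) and of the Ly6c2+ monocyte list 0 of 12 (median 0.06). Of the C-type lectin receptors 0 of 13 passed (median -0.10) and of the aryl hydrocarbon receptor and Nrf2 list also 0 of 13 (median -0.04). Of the interferon gamma list 0 of 20 passed, although 19 were positive and 5 had an unadjusted p under 0.05 (median 0.34). Over all 6143 genes tested, score genes left out, 3054 were positive and 3089 negative. These calls are by edgeR with 2 mice a group, and a gene that did not pass may still differ. The 5 genes of smallest p in the upward direction failed the correction in the fit reported. They were Ccl5 (1.45 ± 0.34 (SE), adjusted p = 0.475 by edgeR), the protease inhibitor gene Serpina3g (1.83 ± 0.49 (SE)), Smim8 (2.11 ± 0.57 (SE)), the lectin gene Clec10a (1.01 ± 0.28 (SE)) and Ccl8 (1.31 ± 0.36 (SE)), the last 4 each at an adjusted p of 0.835 by edgeR. Clec10a is one of the genes that chose the Cd209a group, which held a larger share of the high-score cells in both DEP mice, and the part of that share in these values was not tested. The 5 highest cells held 53.3% of the Ccl8 UMIs, 51.7% of those of Serpina3g and 45.6% of those of Ccl5, and 1 cell held 93 Ccl8 UMIs. In the other kept cells Ccl8 was also higher in both DEP mice, at 524 and 663 CPM against 390 and 318 CPM in the PBS mice. Ccl5 and Ccl8 each passed in 4 of 20 alternatives and Serpina3g in 2 of 18. Across these alternatives the log2 difference ranged from 0.215 to 1.98 for Ccl5, 0.134 to 2.0 for Ccl8 and 1.0042 to 2.68 for Serpina3g. Ccl5 passed without DEP mouse 13 (1.95), PBS mouse 2 (1.52) or PBS mouse 3 (1.38) and with no gene filter (1.42). Ccl8 passed with the score without Saa3 (1.85), without DEP mouse 11 (1.82) or PBS mouse 2 (2.0) and with no gene filter (1.25), and Serpina3g without DEP mouse 13 (2.09) or PBS mouse 3 (2.55).

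The third comparison tested whether the DEP difference in the high-score cells departed from that in the other kept cells of the same mice. Of 5995 genes tested 4 passed (0.0667%, edgeR with mouse as a block), 1 upward (0.0167%) and 3 downward, while 275 had an unadjusted p under 0.05. Ccl5, a chemokine for T cells and monocytes (chr11:83525778-83530518, - strand), was at 433 and 153 CPM in DEP mice 11 and 13, and 116 and 100.4 CPM in PBS mice 2 and 3 in the high-score cells and at 86.1 and 37.4 CPM in DEP mice 11 and 13, and 54.1 and 72.9 CPM in PBS mice 2 and 3 in the other cells. In the high-score cells both DEP mice were above the PBS mice, DEP mouse 11 by far, and in the other cells the groups overlapped. The difference of differences was 1.38 ± 0.21 (SE) at an adjusted p of 0.0164 by edgeR. Ccl5 had a UMI in 64 high-score cells, and the 5 highest held 45.6% of its UMIs. It passed in 10 of 20 alternatives and not without DEP mouse 11, and with the score without Saa3 the value was -0.000732. Hspa1a (-0.58 ± 0.08 (SE), adjusted p = 0.0142 by edgeR) differed more between DEP and PBS in the high-score cells than outside them, and so did Hsp90aa1, a cytosolic Hsp90 (chr12:110690605-110702728, - strand, -0.62 ± 0.08 (SE), adjusted p = 0.0105 by edgeR). Hsp90aa1 was at 544 and 797 CPM in DEP mice 11 and 13, and 1166 and 2492 CPM in PBS mice 2 and 3 in the high-score cells and at 816 and 1189 CPM in DEP mice 11 and 13, and 1206 and 2329.7 CPM in PBS mice 2 and 3 in the other cells, lower in both DEP mice in each. Lgals3, the gene of galectin-3 (chr14:47367751-47386160, + strand), was at 995 and 1066 CPM in DEP mice 11 and 13, and 1216 and 1362 CPM in PBS mice 2 and 3 in the high-score cells, lower in both DEP mice, and at 1473 and 1269 CPM in DEP mice 11 and 13, and 1142 and 1112 CPM in PBS mice 2 and 3 in the other cells, higher in both DEP mice. Neither of its effects passed alone (-0.33 ± 0.20 (SE) and 0.28 ± 0.15 (SE)), and the difference of differences was -0.63 ± 0.10 (SE) at an adjusted p of 0.0245 by edgeR. Of the NF-kB list 23 of 27 genes were positive in this difference and none passed (median 0.22). Over all genes, score genes left out, 2992 of 5991 were positive (median -0.00037). Of the interferon gamma list 16 of 18 were positive and of the S100 list 0 of 6, with none passing in either. No gene passed between DEP and PBS in the other kept cells (0 of 6652, 0.00%, by edgeR's quasi-likelihood test, 182 at an unadjusted p under 0.05). There were 4 calls by DESeq2, 11 by edgeR's likelihood ratio test and 87 with no gene filter, and 25 without DEP mouse 11, 14 without DEP mouse 13 and 12 without PBS mouse 2. Without DEP mouse 11 the calls of Ccl5 (1.17), Hspa1a (-0.49) and Lgals3 (-0.45) were lost, and without PBS mouse 3 that of Lgals3 (-0.53). For all 4 genes the call was lost with DESeq2, with limma voom, with the top 20% and with cells scored after thinning. Over the alternatives the value ranged from -0.000732 to 1.82 for Ccl5 and from -0.969 to -0.266 for Hspa1a. For Hsp90aa1 it ranged from -0.690 to -0.336 and for Lgals3 from -0.970 to -0.175. The call of Ccl5 was also lost with the top 5%, with a higher UMI minimum, with the log of the summed signal and without doublets, that of Hsp90aa1 with the top 5%, and that of Lgals3 with the log of the summed signal and without doublets.

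**Figure D5:**
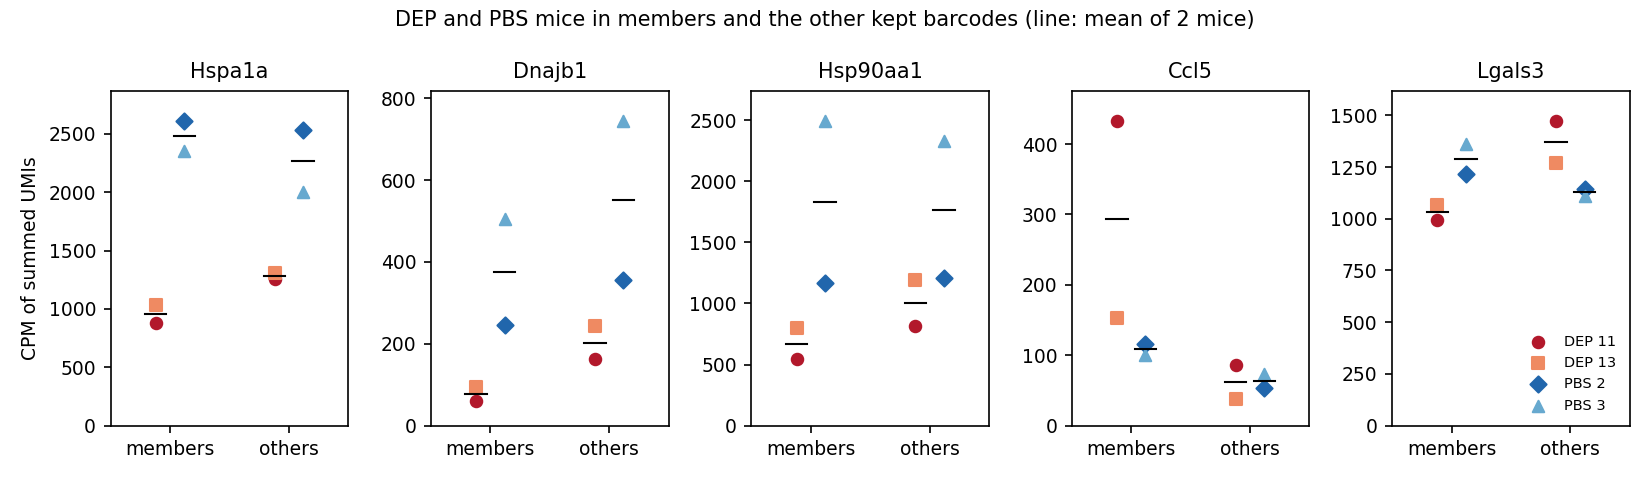
CPM of the summed UMIs (vertical axes, linear, from 0) of 5 genes in the high-score cells (members) and the other kept cells (others), with 1 symbol per mouse and a line at the mean of 2 mice. Both DEP mice lie below both PBS mice for Hspa1a, Dnajb1 and Hsp90aa1 in either class, Ccl5 is highest in the high-score cells of DEP mouse 11, and Lgals3 has opposite orders in the 2 classes.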

How the data were processed

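Lamina propria cells of 4 male mice were sorted and run on 1 10x Genomics 3' (v2) well each, in a single batch. The authors deposited a table of raw UMI counts of 28692 genes in 6954 barcodes, made with Cell Ranger and STAR 2.6.1a on mm10 per the labels and merged without downsampling, and the suffix of a barcode names its mouse. After the filters given above 4543 barcodes remained, far more than the study states under similar limits on UMIs, genes and mitochondrial share, and the reason is not known here. Of the codes, 36 occurred in more than 1 mouse (18 kept barcodes, 3 of them high-score cells). Mice came as separate animals, but groups of 2 give little information on the spread between animals. Symbols and coordinates are from GENCODE M21 (GRCm38).

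UMIs were summed per mouse and class. DEP and PBS mice were compared with edgeR 4.0.16 in R 4.3.3 (quasi-likelihood F test, TMM, Benjamini-Hochberg rate of 5%), on genes detected in 5% or more of a class's barcodes and above 1 CPM in 2 or more sums, and the difference of effects was fitted on 8 sums with mouse as block. The residual degrees of freedom within the high-score cells were 2, and the scripts were tested on simulated counts. DESeq2 1.42.0, limma 3.58.1 (voom), other filters, other scores and each mouse left out were alternatives. Doublets were called with the Scrublet method in scanpy 1.11.5 (expected rate 6%) and kept. Shares have exact binomial 95% intervals (scipy 1.17.1), which cover counting error only. Differences between high-score and other cells are log2((CPM + 10)/(CPM + 10)) per mouse, on genes detected in 10% or more of either class, and the 20 highest and 10 lowest of those on 1 side in 4 of 4 mice were named. For each gene list the most abundant genes were to be named, and for DEP up to 10 called genes a direction or, with none called, the 5 of smallest p. The high-score cells and the 32 gene lists (501 genes, 6 symbols not matched) were chosen with earlier results of these data known, as were the motifs. Replicate numbers (11 and 13 for DEP, 2 and 3 for PBS) were not shared between groups, so nothing was paired.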

Additional observations from a re-analysis of the deposited data

Results flagged for a closer look

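In 4 genes the DEP difference departed between the high-score and the other kept cells of the same mice, by edgeR's test of the difference itself with mouse as block. The log2 difference in the high-score cells minus that in the other cells was 1.38 for Ccl5, -0.62 for Hsp90aa1, -0.58 for Hspa1a and -0.63 for Lgals3. Ccl5 was higher in 2 of 2 DEP mice in the high-score cells, and its value rested on DEP mouse 11 for the call (1.17 without it, not passing). With the score without Saa3 the value of Ccl5 was -0.000732. The other 3 genes were lower in 2 of 2 DEP mice in the high-score cells. The calls of Hspa1a and Lgals3 were also lost without DEP mouse 11. DESeq2 called none of the 4 genes, and in the other kept cells none of them passed between DEP and PBS by edgeR. Dixon's rule for a single outlying sample needs at least 4 samples a group and was not applied to groups of 2.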

How the results depend on the processing

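The difference in the share of high-score cells, -2.58 points, was negative in 9 of 9 alternative scores and filters planned and in the 1 added after the data were seen (high-score cells with at least 3 score-gene UMIs, -2.12). It ranged from -5.83 to 0.678 points with each mouse left out, and turned positive without PBS mouse 2. Within the high-score cells, the count of 2 genes called for DEP became 1 with the top 5%, 0 with the top 20% and 0 with cells scored after thinning, which kept 234 of the 454 cells. The count was 10 with the score without Saa3, 7 with edgeR's likelihood ratio test, 19 with no gene filter, 3 with the log of the summed signal, 3 with at least 3 score-gene UMIs, and 9 to 24 with 1 mouse left out (9 without DEP mouse 11, 18 without DEP mouse 13, 24 without PBS mouse 2 and 19 without PBS mouse 3), where a lone mouse is assumed to vary like the others. For the difference of effects, the count of 4 became 9 with the top 5%, 2 with the top 20%, 15 with the log of the summed signal, 8 with the score without Saa3, 8 with the mitochondrial limit at 5%, 2 without doublets, 15 with at least 3 score-gene UMIs, 10 with the likelihood ratio test, 0 with DESeq2, 1 with limma voom, 33 with no gene filter, and 5 to 12 with 1 mouse left out (6 without DEP mouse 11, 12 without DEP mouse 13, 5 without PBS mouse 2 and 7 without PBS mouse 3). These counts do not say which genes passed, and none of the 4 genes passed with the top 20% or limma voom. Ccl5 turned from 1.38 to -0.000732 with the score without Saa3. The cause of these shifts was not tested. Of 420 differences between high-score and other cells (30 named genes under 14 alternatives) 0 changed sign and 47 moved by more than 1 SD, 20 of them with cells scored after thinning (H2-M2 from -2.04 to -0.79, against -2.77 with the score without Saa3, F10 from 1.98 to 1.32, and Cxcl9 from 1.79 to 1.04 with 3 of 4 mice higher). Slpi was at 0.89 with the top 5% (3 mice higher). No paired analysis was possible because the groups share no replicate number. High-score cells gave 319919 to 1202826 UMIs per mouse, and with 2 mice a group a gene that did not pass may still differ.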
